A study of Mus musculus with 16 samples.

Results

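Knockout of Hnrnpr was examined for its effect on the distribution of transcripts between axons and cell bodies, using the ratio of axonal to somatodendritic RNA in each culture. For a genotype and a replicate number, the axonal library was divided by the somatodendritic library of the same number on the log2 scale, which gave 4 ratios per gene for +/+ and 4 for Hnrnpr-/- motoneurons. All 16 libraries of the series take part, so the members are 16 of 16 libraries, joined into 8 pairs that are called cultures here. A positive ratio means that a transcript takes a larger share of the axonal than of the somatodendritic library. The quantity compared is the ratio in the 4 Hnrnpr-/- cultures minus that in the 4 +/+ cultures on the log2 scale, as fitted to the counts by edgeR. Ratios of single cultures and their means were computed with a prior count that draws low counts toward 0, so that for transcripts with few reads the fitted difference can depart from the difference of the means.

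Motoneurons of the lumbar cord were taken from mouse embryos at day 13, enriched with an antibody to the p75 neurotrophin receptor, and grown in microfluidic chambers, in which axons extend through narrow channels into a compartment of their own. The neurotrophic factor CNTF was supplied on both sides and BDNF on the axonal side alone, for both genotypes. Hnrnpr-/- mice carry a constitutive deletion of the first exons of the gene made with CRISPR/Cas9 and backcrossed to C57Bl/6, so that every cell of a culture lacks it, glia and fibroblasts included. Enrichment and factors were the same for +/+ and Hnrnpr-/- motoneurons, and axonal cDNA received more PCR cycles than somatodendritic cDNA in both.

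hnRNP R is an RNA-binding protein of the heterogeneous nuclear ribonucleoprotein family, related to Syncrip (hnRNP Q). It is found in the nucleus and in motoneuron axons, and is known for binding Actb mRNA and the noncoding 7SK RNA and for its interaction with SMN, the protein lacking in spinal muscular atrophy. Transcripts reach axons as complexes with such proteins that are carried along microtubules by motor proteins. A change in transport, in stability in either compartment or in the amount of RNA from other cells would alter the ratio. The ratio alone does not tell these apart.

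Total counts ranged from 22024923 to 34593927 in +/+ and from 22933618 to 27040743 in Hnrnpr-/- somatodendritic libraries, and from 26892208 to 34864151 in +/+ and from 27688199 to 34316113 in Hnrnpr-/- axonal libraries. The median SD between replicate libraries on the log2 CPM scale was 0.54 in +/+ and 0.48 in Hnrnpr-/- axons, against 0.24 and 0.28 in the somatodendritic compartment. Axonal libraries were thus the more variable, and the median SD of a ratio was 0.58 between +/+ and 0.50 between Hnrnpr-/- cultures. Markers of other cells were higher in axonal than in somatodendritic libraries of both genotypes. Mgp, a matrix protein of fibroblast-like and vascular cells, had mean ratios of 7.65 ± 1.21 in +/+ and 8.20 ± 0.65 in Hnrnpr-/- cultures (SD, n = 4). Chat, which makes acetylcholine and defines motoneurons, had 0.66 to 1.31 CPM in +/+ and 0.87 to 1.28 CPM in Hnrnpr-/- somatodendritic libraries and at most 0.25 CPM in an axonal library.

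The labels number the libraries without saying that axon and soma of a number came from the same chambers, so this was examined first. Deviations from the group mean correlated across genes between the somatodendritic and axonal library of the same number with r from 0.11 in +/+ culture 4 to 0.51 in Hnrnpr-/- culture 4. In 8 of 8 cultures the own number gave the highest correlation. The sex-linked transcripts varied in the same way. Y-linked genes made up 68% of the sum of Y-linked and Xist counts in the soma and 66.3% in the axon of +/+ culture 1, 97.4% and 99.8% in +/+ culture 4, and 69.6% and 71.4% in Hnrnpr-/- culture 1. In the other 5 cultures this share was between 0.0959% and 2.81%. Thus, the somatodendritic and axonal libraries of a number had like makeups in sex, and the sex makeup differed between cultures of the same genotype. Between genotypes, cultures of the same number correlated unevenly. Their r ranged from -0.05 to 0.36 in the soma and from 0.01 to 0.68 in axons, and was highest for number 3 in both. The ratios of +/+ culture 3 and Hnrnpr-/- culture 3 correlated with r = 0.92, the highest of all pairs.

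**Figure D1:**
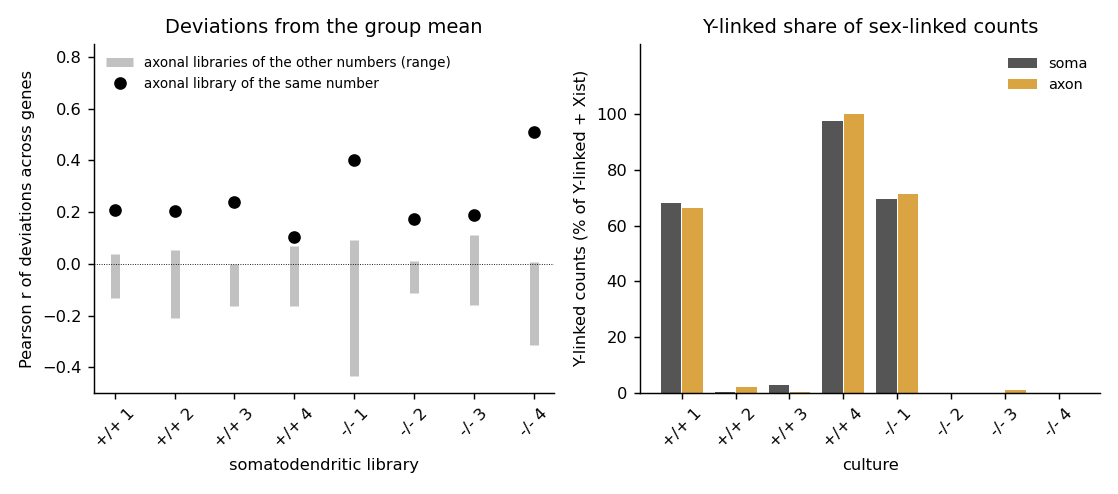
Left, Pearson correlation across genes (y axis) of the deviation of each somatodendritic library (x axis) with the axonal library of the same number (black points) and the range over the other 3 numbers of the genotype (grey bars). Right, Y-linked counts in percent of Y-linked plus Xist counts (y axis) for the soma (grey bars) and axon (yellow bars) of each culture. The own number lies above the other numbers in all 8 cultures, and +/+ 1, +/+ 4 and Hnrnpr-/- 1 are the cultures with a Y-linked share of at least 66.3% in both compartments.

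The targeted gene was examined as a check of the labels. Hnrnpr (chromosome 4, 136038230 to 136086758, GRCm39) had 178, 206, 190 and 241 CPM in the +/+ soma and 0.66, 1.08, 0.54 and 1.16 CPM in the Hnrnpr-/- soma. In axons, the values were 164, 422, 144 and 120 CPM in +/+ and 1.10, 0.99, 0.81 and 0.60 CPM in Hnrnpr-/- cultures. All Hnrnpr-/- libraries thus stood far below all +/+ libraries, in both compartments. The ratio of the few remaining reads was 0.05 ± 0.71 in Hnrnpr-/- against -0.12 ± 0.86 in +/+ cultures (SD, n = 4), a difference of 0.18 with a 95% interval of -0.97 to 1.33.

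The axon-to-soma ratios of Hnrnpr-/- and +/+ cultures were alike over the transcriptome. Between axons and soma, 11246 of 19964 genes or 56.3% differed in +/+ and 10857 or 54.4% in Hnrnpr-/- cultures at an adjusted p under 0.05 in edgeR's quasi-likelihood test with the culture as a block. Of 5594 genes higher in +/+ axons, 4798 or 85.8% were also called higher in Hnrnpr-/- axons, which is 90.7% of the 5289 called there. Of 5652 genes lower in +/+ axons, 4861 or 86.0% were called lower in Hnrnpr-/- axons, 87.3% of 5568. No gene was called in opposite directions, 0 of either set. The mean ratios of the genotypes correlated with r = 0.94 across genes, which are not independent replicates. Between cultures, ratios correlated with a median r of 0.74 within +/+, 0.77 within Hnrnpr-/- and 0.75 between the genotypes. The SD of the ratios over all genes was 1.68 on average in +/+ and 1.6 in Hnrnpr-/- cultures, which did not differ beyond the spread between cultures in a two-sided exact permutation test (p = 0.657, n = 4 against 4).

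No gene passed the adjusted threshold for a knockout effect on the ratio: 0 of 19964 genes or 0% in edgeR's quasi-likelihood test, where the smallest adjusted p was 1, and also 0 in DESeq2 and in limma. At an unadjusted p under 0.05, edgeR called 220 genes or 1.10%, DESeq2 365 and limma 278. Where nothing differs, this threshold passes a share of 0.05 of genes on average, and all of these counts lay below that share. Of the 220 genes, 82 had a higher ratio (0.411% of genes tested) and 138 a lower ratio (0.691%) in Hnrnpr-/- cultures. Without regard to a test, all 4 Hnrnpr-/- ratios lay above all 4 +/+ ratios for 103 genes (0.516%) and below them for 136 genes (0.681%). These shares are the background for every count given below, and the genes described are those nearest to a difference, none of which passed correction. Leaving out a culture moved the unadjusted counts by over 1.5 times: 139 higher and 210 lower genes without +/+ culture 1, 276 lower without +/+ culture 3, 142 higher without +/+ culture 4, 131 higher and 241 lower without Hnrnpr-/- culture 1, 43 higher without Hnrnpr-/- culture 2 and 84 lower without Hnrnpr-/- culture 4.

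**Figure D2:**
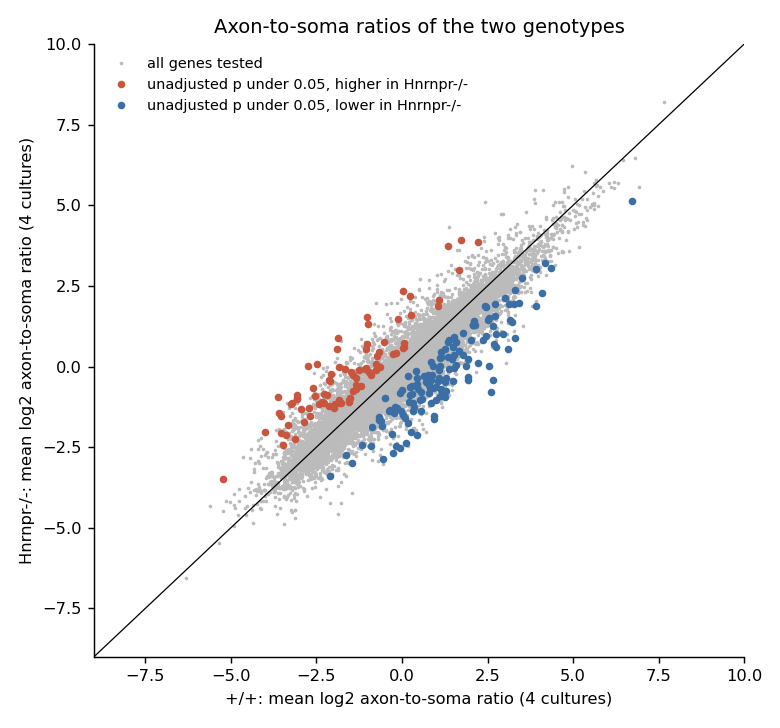
Mean log2 axon-to-soma ratio of the 4 +/+ cultures (x axis) against that of the 4 Hnrnpr-/- cultures (y axis) for 19964 genes (grey), with the diagonal of equal ratios. The 82 genes with a higher (red) and 138 with a lower ratio (blue) at an unadjusted p under 0.05 lie beside a cloud that follows the diagonal, and no gene passed after adjustment.

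What the comparison could resolve depended on the level of a transcript. The 95% interval of the difference had a median half-width of 0.96 over all genes and of 0.69 over the 11227 genes with a mean of at least 10 CPM. It lay within 1 log2 unit of 0, that is, under a 2-fold change in either direction, for 7532 genes or 37.7%. This was the case for 6899 genes or 61.5% at 10 CPM or more and for 633 genes or 7.25% below. For the remaining genes a 2-fold change was not excluded by these 8 cultures. Unadjusted calls made up 2.18% of genes under 1 CPM, 1.64% between 1 and 10 CPM and 0.517% at 10 CPM or more. Long noncoding RNAs were 14.4% of all genes tested, 23.2% of the 82 higher and 37.0% of the 138 lower genes.

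The genes on either side were also distinguished by where their transcripts lay. Of the 138 genes with a lower ratio in Hnrnpr-/- cultures, 113 or 81.9% had a positive mean ratio in +/+ and 58 or 42.0% in Hnrnpr-/- cultures. Of the 82 genes with a higher ratio, 12 or 14.6% had a positive ratio in +/+ and 27 or 32.9% in Hnrnpr-/- cultures. Over all genes these shares were 49.4% and 48.2%. The +/+ ratio is part of the difference that chose these genes, and the shares are given as a description.

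Among transcripts with a mean of at least 5 CPM, 44 had 4 Hnrnpr-/- ratios above and 56 had 4 Hnrnpr-/- ratios below all +/+ ratios, and the 12 with the smallest p in each direction are described. The 12 higher genes had differences from 0.48 to 1.25 with unadjusted p from 0.00427 to 0.0433 in edgeR, and the 12 lower genes had differences from -1.89 to -0.57 with unadjusted p from 0.00245 to 0.0290. A single gene whose groups do not overlap has p = 0.0286 in an exact permutation test of 4 against 4 cultures, the smallest p this design allows. These genes were chosen for groups that do not overlap, so that p was fixed by the choice and is no evidence for them.

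Hlcs, which encodes the enzyme that attaches biotin to carboxylases, had the smallest p of the higher genes. Its transcript (chromosome 16, 93930054 to 94116098, minus strand) had ratios of -2.05, -2.86, -2.16 and -2.33 in +/+ and of -1.04, -0.66, -1.74 and -1.0 in Hnrnpr-/- cultures. All ratios were negative, so that the transcript stood lower in axons throughout, but less so in every Hnrnpr-/- culture. The difference was 1.25 with an SE of 0.34 and an unadjusted p of 0.00427 in edgeR. Hlcs overlaps the opposite-strand gene LOC115488625, and because the library kit does not mark the strand, reads of the pair cannot be told apart.

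Bbs2 encodes a subunit of the BBSome, a coat that moves membrane proteins into and out of cilia. Its ratios were -0.69, -2.16, -1.34 and -1.16 in +/+ and -0.24, -0.24, -0.61 and -0.29 in Hnrnpr-/- cultures, a difference of 0.99 (SE 0.32). The unadjusted call of Bbs2 was lost without the culture block, with a p of 0.0516 in edgeR. Ankrd27, or VARP, which acts in endosomal sorting and neurite growth, had -0.29, -0.70, -0.23 and 0.18 in +/+ against 0.32, 0.44, 0.35 and 0.41 in Hnrnpr-/- cultures. The Hnrnpr-/- mean of Ankrd27 was 0.38 ± 0.05 (SD, n = 4), and the difference was 0.64 (SE 0.23). Its unadjusted p of 0.0206 was lost without +/+ culture 1 or +/+ culture 2, with p up to 0.0524.

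Slc16a7, the monocarboxylate transporter through which neurons take up lactate and pyruvate, had mean ratios of -1.96 ± 0.45 in +/+ and -1.18 ± 0.24 in Hnrnpr-/- cultures. Dnase1, an endonuclease, stood at -1.84 ± 0.37 and -1.02 ± 0.16, and Dffa, the inhibitor and chaperone of the apoptotic nuclease, at -0.64 ± 0.28 and -0.01 ± 0.29. Gtf3c3, a subunit of the RNA polymerase III factor TFIIIC, had ratios of -1.56 ± 0.18 and -1.09 ± 0.18 with the smallest difference of the 12, 0.48. Zfp518b, Zc3hav1l and Sel1l3 had differences of 0.71, 0.79 and 0.55 with negative ratios in both genotypes. Sel1l3 overlaps the opposite-strand gene LOC118568745 over 27204 bases, whose reads cannot be told apart from its own. Of 20 alternatives, 11 lost the call of Sel1l3, 10 that of Gtf3c3, 9 that of Galm, 8 that of Xylb, 7 those of Zc3hav1l and Dffa, 6 that of Slc16a7, 5 that of Dnase1 and 4 that of Zfp518b, with p up to 0.228. The sugar-metabolizing enzymes Galm (galactose mutarotase) and Xylb (xylulokinase) were the 2 of 12 with a positive +/+ mean, 1.04 ± 0.53 and 0.04 ± 0.13, and had 1.89 ± 0.20 and 0.74 ± 0.40 in Hnrnpr-/- cultures.

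Anxa4, a calcium-dependent phospholipid-binding annexin, had the smallest p of the lower genes. Its ratios were 2.55, 3.27, 3.30 and 3.37 in +/+ and 2.22, 1.72, 1.99 and 1.85 in Hnrnpr-/- cultures, with a difference of -1.19, an SE of 0.29 and an unadjusted p of 0.00245. Most of the difference lay in the soma, where Anxa4 had 1.78 to 2.90 CPM in +/+ and 1.07 to 10.8 CPM in Hnrnpr-/- libraries. In axons it had 15 to 29.2 CPM in +/+ and 5.26 to 38.9 CPM in Hnrnpr-/- libraries, and the genotype differences were -0.07 in axons and 1.20 in the soma in a fit without the culture block. In that edgeR fit its ratio no longer passed the unadjusted threshold, with a p of 0.152, and neither did it with a block shared between genotypes, with a p of 0.107. Gypc, a membrane protein that anchors the spectrin skeleton of red cells, and Slc29a1, the nucleoside transporter ENT1, were of the same kind. Gypc had ratios of 4.36 ± 0.55 and 3.05 ± 0.64, with genotype differences of -0.34 in axons and 1.03 in the soma. Slc29a1 had ratios of 2.44 ± 0.29 and 1.87 ± 0.13, with -0.12 in axons and 0.47 in the soma. Without the culture block the unadjusted calls of Gypc and Slc29a1 were lost as well, and that of Slc29a1 was lost in 9 of 20 alternatives, with p up to 0.186 in edgeR.

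For other lower genes, the axonal part was larger. Gm19417, a long noncoding RNA that lies opposite to the transcription factor gene Nfia (chromosome 4, 97725631 to 97757246, minus strand), had ratios of 2.61, 4.02, 3.0 and 2.96 in +/+ and 1.81, 1.73, 1.70 and 0.57 in Hnrnpr-/- cultures. The difference was -1.73 (SE 0.44, unadjusted p = 0.00313), of which -0.92 was seen in axons and 0.88 with the opposite sign in the soma. LOC118567340, a long noncoding RNA within Lsamp on the same strand, had -0.20, 1.90, -0.67 and -0.37 against -1.25, -0.85, -2.90 and -2.01. Gm52097, opposite to the active-zone gene Erc2, had -0.98, 1.5, 0.04 and -0.45 against -1.13, -1.36, -1.40 and -2.12. For both noncoding RNAs +/+ culture 2 was the highest by over 1 log2 unit, although the other 3 +/+ cultures also stood above all Hnrnpr-/- cultures. Reads of Gm19417 and Gm52097 cannot be told apart from those of the opposite gene, and reads of LOC118567340 may be shared with Lsamp.

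Of the protein-coding lower genes, Bcl2, which restrains apoptosis at the mitochondrial membrane, had 1.17, 1.46, 1.32 and 1.44 in +/+ and 0.82, 0.81, 1.12 and 0.34 in Hnrnpr-/- cultures. The difference of -0.58 (SE 0.22) was for the most part axonal, with -0.48 in axons and 0.09 in the soma. Trdmt1, a methyltransferase of transfer RNA, had 0.71 ± 0.40 and -0.47 ± 0.49, and Gca, the calcium-binding protein grancalcin, 0.29 ± 0.60 and -0.85 ± 0.24. Tceanc2 had the tightest +/+ values of the 12, 0.76 to 0.94, against -0.23 to 0.45. Rwdd4a and Zfp729a had differences of -0.68 and -1.06. The axonal part of the genotype difference was larger than the somatodendritic part in 8 of the 12 lower and 10 of the 12 higher genes, against 59.9% of all genes tested. Axonal libraries varied more and form part of the difference that chose these genes, so these counts are a description. The unadjusted call was lost in 6 of 20 alternatives for Bcl2, in 4 for Rwdd4a and Zfp729a, and in 1 for Trdmt1, Gca and Tceanc2.

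**Figure D3:**
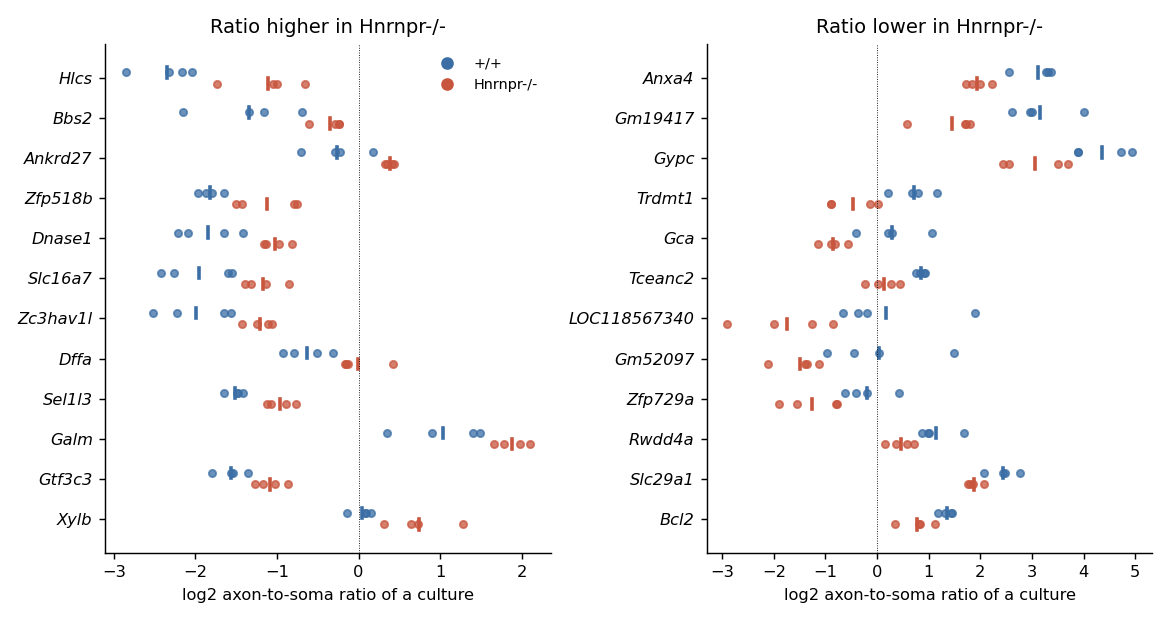
Log2 axon-to-soma ratio (x axis) of the 4 +/+ (blue) and 4 Hnrnpr-/- cultures (red) for the 12 genes with the smallest p on each side, with bars at the means. The genes were chosen so that the groups do not overlap. The +/+ mean is positive for 2 of the 12 genes on the left and for 11 of the 12 genes on the right.

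A set of transcripts with few reads had fitted differences of over 3 log2 units. Gm13373, a long noncoding RNA (chromosome 2, 28204892 to 28294710, minus strand), was counted 25, 12, 28 and 18 times in the +/+ soma and 19, 11, 21 and 16 times in the Hnrnpr-/- soma. In axons it had 0 counts in all 4 +/+ libraries and 12, 5, 9 and 20 counts in Hnrnpr-/- libraries. The soma thus overlapped between genotypes and the axons did not. With 3 counts, the limit that a count of 0 allows, in place of each 0, the ratio was at least 3.90-fold higher in Hnrnpr-/- cultures. The unadjusted p of 0.000721 was the smallest of all genes, and it stayed under 0.05 in 20 of 20 alternatives with adjusted p from 0.262 to 1. LOC118568625, a long noncoding RNA within Negr1, had 22, 31, 28 and 29 axonal counts in +/+ and 0, 10, 4 and 1 in Hnrnpr-/- cultures, with somatodendritic counts of 22, 39, 42 and 28 against 20, 45, 29 and 14. Its ratios were 0.16, -1.01, -0.88 and -0.53 against -3.67, -2.41, -2.76 and -2.70, with an unadjusted p of 0.00405 that also held in 20 of 20 alternatives.

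Gm15477, a long noncoding RNA, had 10, 96, 8 and 25 axonal counts in +/+ and 0, 4, 3 and 0 in Hnrnpr-/- cultures, and 14 to 24 against 7 to 19 counts in the soma. The highest axonal count was that of +/+ culture 2. The unadjusted p of Gm15477, 0.0152 in edgeR, stayed under 0.05 in 19 of 20 alternatives. It became 0.0540 only without both +/+ culture 2 and Hnrnpr-/- culture 1. Stra6, the retinol transporter, had 0, 0, 1 and 0 axonal counts in +/+ and 23, 13, 37 and 0 in Hnrnpr-/- cultures. Because Hnrnpr-/- culture 4 was at 0 although its soma had 53 counts, the highest of all, the ratios of Stra6 overlapped between genotypes, and its unadjusted p of 0.0258 was lost in 10 of 20 alternatives. Stra6 overlaps Ccdc33 on the opposite strand over 55031 bases, and LOC118568625 lies within Negr1 on the same strand, so that their reads may not be told apart from those genes. These transcripts were selected with earlier results of these libraries known and are no independent evidence of a direction.

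**Figure D4:**
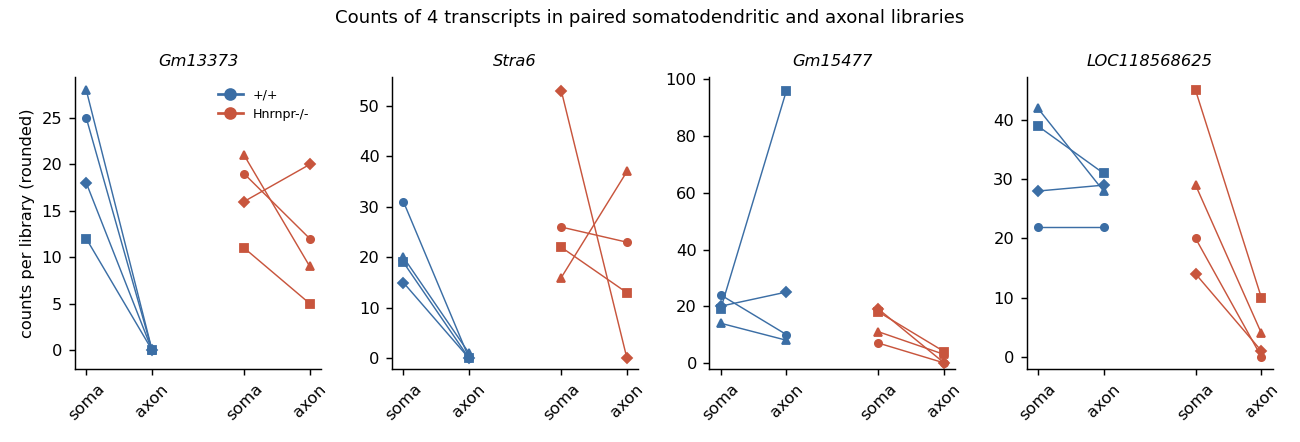
Rounded counts per library (y axis) in the soma and axon (x axis) of the 4 +/+ (blue) and 4 Hnrnpr-/- cultures (red), with a line for each culture (circle, square, triangle and diamond for replicates 1 to 4). Gm13373 and Stra6 drop to 0 or 1 count in +/+ axons, while LOC118568625 and Gm15477 drop to between 0 and 10 counts in Hnrnpr-/- axons.

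Other transcripts named for the effect of the knockout had ratios that overlapped between genotypes. Lefty2, a TGF-beta family antagonist, had 2, 0, 2 and 1 axonal counts in +/+ and 11, 2, 10 and 12 in Hnrnpr-/- cultures, but its somatodendritic counts of 86, 14, 45 and 16 against 135, 96, 53 and 110 differed as well, and its mean ratio was -3.61 ± 0.55 against -3.71 ± 1.00. The fitted difference of Lefty2 was 1.07 (95% interval -0.66 to 2.81), opposite in sign to that of the means. Bmpr2, a BMP receptor, had a difference of -0.74 (95% interval -1.81 to 0.33), and Ppp1cb, a catalytic subunit of protein phosphatase 1, of -0.83 (-1.76 to 0.11). For Pgm2l1 the difference was -1.23 (-3.48 to 1.02) and for Fsd1l -0.51 (-1.92 to 0.90). In Bmpr2, Ppp1cb, Pgm2l1 and Fsd1l the highest of the 8 ratios was that of +/+ culture 2, between 0.79 and 1.79. Nipsnap2, Plekha5 and Gm17508 had differences of -0.12, -0.03 and 0.00.

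Partners and relatives of hnRNP R were examined as a group. Of 38 hnRNP and axonal RNA-binding proteins, 14 had positive and 24 negative differences, with a median of -0.10, and 1 was called lower and 0 higher at an unadjusted p under 0.05. The median was -0.00775 without Hnrnpr-/- culture 1, -0.02 without +/+ culture 2, -0.22 without +/+ culture 4 and 0.09 without both +/+ culture 2 and Hnrnpr-/- culture 1. The gene called lower was Syncrip, the closest relative of Hnrnpr, with ratios of 0.16, 0.93, 0.32 and 0.28 in +/+ and -0.33, -0.22, 0.03 and -0.01 in Hnrnpr-/- cultures. No Hnrnpr-/- culture reached a +/+ culture, and the difference was -0.55 (SE 0.23, unadjusted p = 0.0368). The Syncrip difference lay in the soma, with a genotype difference of 0.57 there and of -0.03 in axons. Somatodendritic Syncrip was 67.7, 89.5, 92.8 and 81.9 CPM in +/+ and 106, 137, 135 and 113 CPM in Hnrnpr-/- cultures, so that every Hnrnpr-/- soma stood above every +/+ soma. The unadjusted call for the Syncrip ratio was lost in 8 of 20 alternatives, among them those without +/+ culture 2 or Hnrnpr-/- culture 1, 2 or 4, with p up to 0.260.

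Of the 9 genes of the SMN complex, which assembles spliceosomal particles, 8 had positive differences with a median of 0.15, which was 0.0016 without Hnrnpr-/- culture 3, 0.02 without +/+ culture 4 and 0.38 without +/+ culture 2 and Hnrnpr-/- culture 1. Gemin5, its RNA-recognition subunit, was called higher (1 of 9), with ratios of -0.60, -1.49, -0.74 and -0.81 in +/+ and -0.70, 0.07, -0.02 and -0.40 in Hnrnpr-/- cultures. Hnrnpr-/- culture 1 lay within the +/+ range. The difference was 0.65 (SE 0.28, unadjusted p = 0.0417) and the call was lost in 8 of 20 alternatives, those without +/+ culture 2, 3 or 4 or Hnrnpr-/- culture 2, 3 or 4 among them, with p up to 0.120. The 7 genes of the 7SK particle, which holds the elongation factor P-TEFb in check, had 3 positive and 4 negative differences and 0 calls. The inhibitor Hexim1 had Hnrnpr-/- ratios that all lay below the +/+ ratios, 0.69 ± 0.24 against 1.24 ± 0.15, with an unadjusted p of 0.0741. Rn7sk itself, the RNA of the particle, had too few counts in most libraries and ratios from -1.10 to 4.60.

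Actb, the best known mRNA bound by hnRNP R, had ratios of 0.83, 0.55, 2.13 and 1.03 in +/+ and 0.93, 0.89, 2.04 and 1.32 in Hnrnpr-/- cultures. Actb was thus higher in the axonal library of every culture and overlapped between genotypes, with a difference of 0.17 and a 95% interval of -0.71 to 1.04. In both genotypes its ratio was highest in culture 3, where the ratios of Mapt, Map2, Tubb3 and Stmn2 were lowest. Those of Mapt were -2.99 in +/+ and -4.18 in Hnrnpr-/- culture 3. The part of other cells in the Actb ratio was not tested. The 20 actin isoforms and regulators had a median difference of 0.03 with 0 calls. That median was -0.07 without Hnrnpr-/- culture 3 and 0.19 without +/+ culture 3. Transcripts of the O-GlcNAc and eIF4G pathway that the study follows at the protein level had small differences. Ogt, the O-GlcNAc transferase, differed by 0.08 (95% interval -0.45 to 0.61) and Eif4g1, the scaffold of the cap-binding complex, by 0.28 (-0.28 to 0.85). Both intervals lay within 1 log2 unit of 0. The 8 genes of O-GlcNAc cycling and the hexosamine pathway had a median difference of 0.12 with 0 calls, Gfpt1, the first enzyme of that pathway, having 0.36 (SE 0.20).

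Lists of the translation and energy machinery had median ratios above 0 in both genotypes and small positive median differences. The 82 tested mRNAs of cytosolic ribosomal proteins had a median ratio of 1.68 in +/+ and 1.89 in Hnrnpr-/- cultures, and 73 of them had a positive difference with a median of 0.17. The 83 nuclear-encoded mRNAs of oxidative phosphorylation had 1.12 and 1.22, with 71 positive differences and a median of 0.17. For the 37 proteasome subunits, 33 differences were positive with a median of 0.15, and for the 69 translation initiation and elongation factors, 47 with a median of 0.09. Over all 19964 genes 9983 differences were positive, with a median of 5.01e-05. In these 4 lists, 0 genes were called at an unadjusted p under 0.05 in either direction. The genes of a list vary together from culture to culture, and their per-culture medians overlapped. Ribosomal protein medians were 1.30, 2.07, 2.34 and 1.05 in +/+ and 2.01, 1.38, 1.96 and 2.11 in Hnrnpr-/- cultures. Without +/+ culture 4 the median difference of this list was -0.01, and that of oxidative phosphorylation was 0.00 without Hnrnpr-/- culture 1. That of the translation factors was -2.59e-05 without Hnrnpr-/- culture 3 and 0.03 without +/+ culture 2, and that of the proteasome was 0.06 without +/+ culture 4 and 0.07 without Hnrnpr-/- culture 3.

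By their list medians, neuronal transcripts were lower in axonal than in somatodendritic libraries of every culture. The 28 genes of synaptic vesicles and the active zone had 5 positive and 23 negative differences with a median of -0.17, and the 30 genes of the neuronal cytoskeleton and growth cone 9 and 21 with -0.18. Neither list had a call. The per-culture medians of the synaptic list were -2.06, -2.14, -3.91 and -1.89 in +/+ and -1.43, -2.02, -4.49 and -3.28 in Hnrnpr-/- cultures, so that the lowest and the highest culture were both Hnrnpr-/-. The median difference turned to 0.34 without Hnrnpr-/- culture 3 for the synaptic list and to 0.25 for the cytoskeletal list. Mapt, the microtubule-associated protein tau, had -1.52, -1.10, -2.99 and -1.32 against -0.45, -1.45, -4.18 and -2.33. Mapt, Map2, Tubb3 and Stmn2 had differences of -0.35, 0.00, -0.17 and -0.25, with standard errors of 0.76, 0.65, 0.61 and 0.77. The 10 tested motoneuron identity genes had a median difference of 0.27 and 0 calls. That median became -0.20 without +/+ culture 3 and 0.86 without Hnrnpr-/- culture 3. Of these genes, Slc18a3, the vesicular acetylcholine transporter, had a difference of 1.80 (95% interval -0.50 to 4.10). The 62 genes of kinesin, dynein and dynactin, mitotic kinesins included, had a median of 0.08 and 1 call, Kif6, with ratios of 0.75 ± 0.51 and -0.27 ± 0.52 and an unadjusted p of 0.0367 in edgeR. The Kif6 call was lost in 6 of 20 alternatives, with p up to 0.117. The cytoskeletal list of the study (27 genes) had a median of 0.06, its compartment markers and axonal proteins (27) 0.09, and the immediate early and injury response genes (20) 0.01, with 0 calls each. Without Hnrnpr-/- culture 1 the first 2 medians were -0.10 and -0.01, and without Hnrnpr-/- culture 3 the first was 0.33. The immediate early median was -0.11 without Hnrnpr-/- culture 4 and 0.26 in limma with array weights.

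The lists of nuclear RNA and of astrocytes or radial glia had the most negative medians among the lists with calls. Of 11 nuclear long noncoding RNAs, 9 had a negative difference with a median of -0.61, and Tsix and Malat1 were called lower (2 of 11). Malat1, a noncoding RNA of nuclear speckles, had ratios of 2.02 in +/+ and 0.83 in Hnrnpr-/- cultures on average, a difference of -1.19 (SE 0.52, unadjusted p = 0.0471). In axons it ranged from 358 to 2124 CPM in +/+ and from 400 to 542 CPM in Hnrnpr-/- libraries, and +/+ culture 2 held the highest value. Without +/+ culture 2 the median of this list was -0.10. Tsix lies opposite to Xist, and their reads cannot be told apart. The Tsix call was lost without the culture block, with a block shared between genotypes and without Hnrnpr-/- culture 2, with p up to 0.0888. Of 17 astrocyte and radial glia markers, 16 had a negative difference with a median of -0.58, and Sox2 and Hes5 were called lower (2 of 17). Without +/+ culture 2 this median was -0.37. Sox2, a transcription factor of neural stem cells, had 1.45, 2.64, 2.14 and 2.33 in +/+ and 1.28, 1.42, 1.54 and 0.87 in Hnrnpr-/- cultures, an unadjusted p of 0.0150 in edgeR. The Sox2 call was lost without the culture block, with a block shared between genotypes, and without +/+ culture 2 and Hnrnpr-/- culture 1, with p up to 0.167. Hes5, a Notch target, had a difference of -0.94 (SE 0.38, unadjusted p = 0.0327). Malat1 and Hes5 were named after their values were seen.

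The summed level of the astrocyte and radial glia markers was 2314 to 3638 CPM in the +/+ soma and 2753 to 4398 CPM in the Hnrnpr-/- soma, and 6117 to 9343 CPM in +/+ and 5388 to 8409 CPM in Hnrnpr-/- axonal libraries. These ranges lay higher in the Hnrnpr-/- soma and lower in Hnrnpr-/- axonal libraries while overlapping in both, and the part of glial cells in the Sox2 and Hes5 ratios was not tested. In bulk libraries, fewer cells of a type and less RNA per cell cannot be told apart. Of 15 fibroblast and meningeal markers, 14 had a negative difference with a median of -0.34, and Dcn, a matrix proteoglycan, was called lower (1 of 15), with somatodendritic values of 1.35 to 17.8 CPM in +/+ and 2.88 to 70.2 CPM in Hnrnpr-/- libraries. The Dcn call was lost in 8 of 20 alternatives, both without the culture block and with a block shared between genotypes among them, with p up to 0.213. The median of the fibroblast list became 0.06 without Hnrnpr-/- culture 3 and -0.98 without the culture block. The summed level of this list was 129 to 672 CPM in the +/+ and 209 to 1497 CPM in the Hnrnpr-/- soma, and 396 to 4682 CPM in +/+ and 625 to 3631 CPM in Hnrnpr-/- axonal libraries, and its part in the Dcn ratio was not tested. The pericyte and smooth muscle markers summed to 1503 to 12302 CPM in +/+ and 2406 to 10973 CPM in Hnrnpr-/- axonal libraries, with a median difference of -0.23 over 11 genes that became 0.31 without +/+ culture 4. The 12 microglia markers had a median difference of -0.94 with 0 calls, and per-culture medians of 1.48, 1.17, -1.69 and 0.36 in +/+ and -1.83, 0.30, -4.65 and 1.93 in Hnrnpr-/- cultures. The highest and the lowest microglial culture were both Hnrnpr-/-, and the median difference was -2.61 without Hnrnpr-/- culture 4 and 0.07 without the culture block. Oligodendroglia and Schwann cell markers (13 genes) had a median of -0.10, endothelial markers (6) -0.05 or -0.30 with Cldn5 at its counting limit, proliferation genes (12) -0.09, the sex-linked genes (5) 0.44 and the only erythroid marker tested, Alas2, 0.67, without a call. The value of Alas2 was -0.06 without +/+ culture 4. The oligodendroglial median was -0.51 without Hnrnpr-/- culture 4 and 0.21 without Hnrnpr-/- culture 3, and the endothelial median was -0.88 without Hnrnpr-/- culture 1 and 0.21 without Hnrnpr-/- culture 2. The proliferation median was 0.50 without Hnrnpr-/- culture 1, -0.52 without +/+ culture 4 and 0.79 without both +/+ culture 2 and Hnrnpr-/- culture 1, and the sex-linked median was -0.62 under the stricter filter. Of 27 lists with a median, 6 kept their sign in every alternative and 21 did not.

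**Figure D5:**
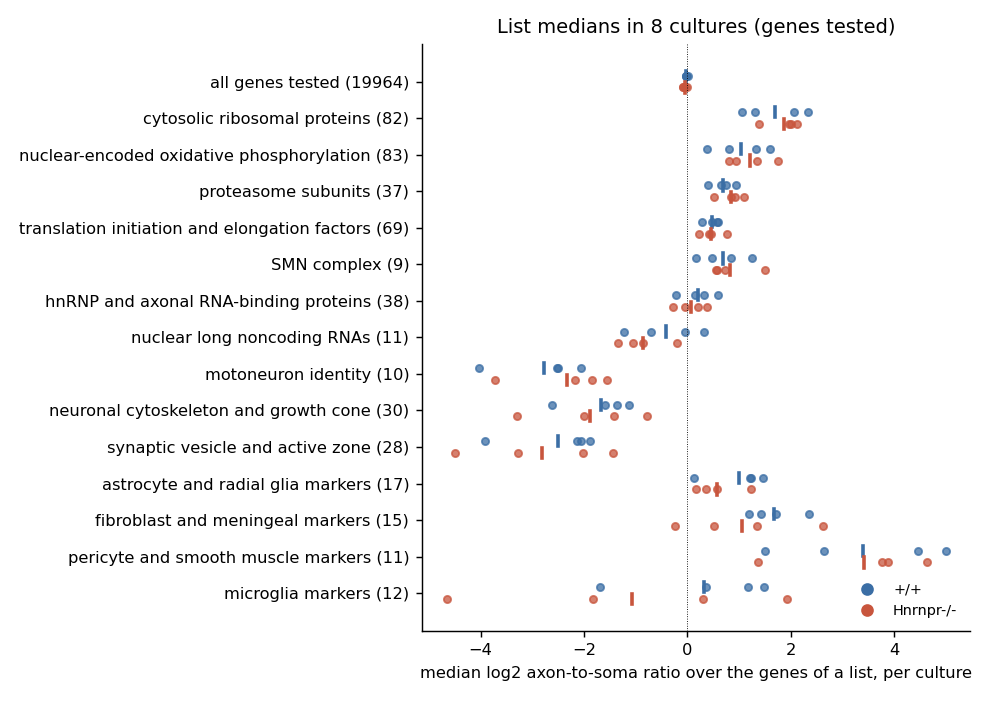
Median log2 axon-to-soma ratio over the tested genes of a list (x axis) in each of the 4 +/+ (blue) and 4 Hnrnpr-/- cultures (red), with bars at the means and the number of genes in brackets. The cultures of the genotypes overlap in every list shown, and the spread between cultures is widest for microglia, pericyte and synaptic genes.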

How the data were processed

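Titles gave genotype, compartment and number of 16 libraries from embryonic day 13 motoneurons, 4 per group. The authors trimmed reads with Cutadapt, aligned them with STAR 2.7.2b to GRCm39 and counted exonic reads per gene with featureCounts 1.6.4, in the reverse-strand setting although the kit does not mark strand, with multimapping and overlapping reads divided. The deposited values are these expected counts, not normalized, for 46320 genes; exon lengths beside them were not used. Total counts were 22024923 to 34864151 per library. A count of 0 allows up to 3 counts per library, which covers counting error only. No 2 libraries were identical, and 0 sample columns were left unmatched.

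Counts were rounded, filtered by group with filterByExpr (19964 genes) and scaled by TMM in R 4.3.3 with edgeR 4.0.16. A quasi-likelihood model held 8 culture effects, the +/+ axon-to-soma ratio and the knockout difference of that ratio, adjusted by Benjamini-Hochberg over all genes at 0.05, and was tested on simulated data. All tests are two-sided, standard errors are the size of the difference over the root of F, and intervals are 95%. Per-culture ratios are log2 CPM with a prior count of 2. Genotype differences per compartment come from the same model with 4 group means and no culture block. The libraries were paired by number because same-numbered soma and axon deviated together in 8 of 8 cultures with r over 0.1, which is a pattern of the data since the labels do not state the chamber. The study describes biological replicates, whereas the labels do not tie a culture to an animal or day, and p values measure the spread between these cultures.

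The rule for named genes took any gene past the adjusted threshold, the 12 higher and 12 lower genes with the smallest p among those with a mean of at least 5 CPM and groups that do not overlap, transcripts named by the study or in an earlier description of these data, compartment markers, and the tested gene with the smallest p in each direction of each list. The comparison, lists and rule were chosen with earlier results of these data known. The result of 1 of the genes that the rule names is not reported here. Of 28 lists, that of mitochondrially encoded mRNAs matched 0 genes of the table and was not analysed here. The list of translation factors was taken by symbol and also holds methyltransferases such as Eef1akmt1. Alternatives were RLE factors, library totals, no filter, counts left fractional, a filter asking for 10 counts in each library of at least 1 group, no culture block, the number as a block shared between genotypes, limma 3.58.1 on the 8 ratios with prior counts of 2 and 0.5 and with array weights, DESeq2 1.42.0, and each culture left out. A fit without +/+ culture 2 and Hnrnpr-/- culture 1, the cultures least correlated with the others, was chosen after seeing the data.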

Additional observations from a re-analysis of the deposited data

Results flagged for a closer look

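Of 96 groups of 4 ratios examined over the genes named for their own values, 7 held a culture whose gap to the nearest other culture took a larger part of the group's range than Dixon's 95% limit for 4 values allows, and chance flags about 1 in 20 such groups. In Hnrnpr-/- culture 1, Dffa had a ratio of 0.42 against -0.17 to -0.13 in the other 3 Hnrnpr-/- cultures, and Ppp1cb had -0.063 against -1.24 to -1.05. Bbs2 had -0.61 in Hnrnpr-/- culture 3 against -0.29 to -0.24. Nipsnap2 had -0.26 in Hnrnpr-/- culture 2 against -0.01 to 0.02. Gm19417 had 0.57 in Hnrnpr-/- culture 4 against 1.70 to 1.81. Anxa4 had 2.55 in +/+ culture 1 against 3.27 to 3.37, and Rwdd4a had 1.68 in +/+ culture 2 against 0.87 to 1.00.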

How the results depend on the processing

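Under 20 alternatives, 0 genes passed the adjusted threshold for the knockout effect, and the Hnrnpr difference stayed uncalled at -0.11 to 0.55. Unadjusted counts of 82 higher and 138 lower genes became 246 and 347 in limma with array weights, 145 and 220 in DESeq2, and 161 and 173 without +/+ culture 2 and Hnrnpr-/- culture 1. With each culture left out they ranged from 43 to 142 and from 84 to 276. Without the replicate block that pairs soma and axon, 81 genes were higher and 184 lower, and 126 of the 220 genes were shared with the paired fit. With a replicate block by number shared between genotypes there were 120 and 155, sharing 162. Counts between compartments ranged from 8754 to 12404 genes in +/+ and from 8327 to 13047 in Hnrnpr-/- cultures. Scaling by library totals gave 66 and 151 and moved the median of all genes to -0.03. Of the named genes' values other than Hnrnpr, 1776 kept their side of the unadjusted threshold (69 with the opposite sign, all uncalled), 146 lost it, 29 gained it and 0 reversed. Precision was lower for genes under 10 CPM, of which 7.25% had an interval within 1 log2 unit of 0.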

Other observations

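The cultures differed in how often they gave the extreme ratio. For the 138 genes with a lower ratio in Hnrnpr-/- cultures at an unadjusted p under 0.05 in edgeR, +/+ culture 2 was the highest of the 4 +/+ cultures in 74 or 53.6%, against 29.3% over all 19964 genes, and +/+ culture 1 was the lowest in 55 or 39.9%, against 16.2%. For the 82 higher genes, +/+ culture 2 was the lowest +/+ culture in 37 or 45.1%, against 29.7%, +/+ culture 1 the highest in 27 or 32.9%, against 17.6%, and Hnrnpr-/- culture 2 was the highest Hnrnpr-/- culture in 33 or 40.2%, against 23.6%. The ratios of these cultures are part of the difference that chose the genes, and the shares are a description. The ratios of +/+ culture 2 also correlated least with those of the other 7 cultures, with a mean r of 0.67 across genes, against 0.70 to 0.80 for the others. In axons of +/+ culture 2, 22700 genes had a count, the fewest of all libraries, and in the other 15 libraries 23843 to 26072 had one. Its total count of 34864151 was the highest.

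Most genes called between compartments in only 1 genotype had no call for the difference itself. Of 1587 genes called in +/+ alone, 73 or 4.6% had an unadjusted p under 0.05 in edgeR for the difference between genotypes, and of 1198 genes called in Hnrnpr-/- cultures alone, 43 or 3.59%, against 1.10% of all genes tested. The ratio of each genotype is part of both calls, and the shares are a description. Their median absolute differences were 0.47 and 0.42, against 0.23 over all genes.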
